A study of Mus musculus with 8 samples.

Results

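The miRNAs mmu-miR-9-5p, mmu-miR-124-3p, mmu-miR-128-3p, mmu-miR-218-5p and mmu-miR-219a-5p, known from neurons and glia, were followed in embryonic mouse footpad skin (the species prefix is left out below). They were chosen by name, 5 of the 1881 mouse miRNAs of an Agilent array, and all 10 of their probes were read (2 each). Only 3 of the 5 gave a signal above background. The groups were wild type (WT) at embryonic day E16.5, a Dicer conditional knockout (Dicer cKO) of the same day, and the same genotypes at E17.5, each with 2 arrays. All embryos were on a C57BL6 background, and each array held Cy3-labelled RNA pooled from the footpads of 3 to 5 embryos, so the spread between arrays is that between pools. The Cre driver and the cells that lost Dicer are not given in the sources used here, and the array does not measure Dicer mRNA.

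Mature miRNAs are cut from hairpin precursors by Dicer, and a loaded miRNA recognises its target mRNAs mainly through its seed, the bases next to its 5′ end. Neurons make miR-124 and, with their progenitors, miR-9. miR-128 is enriched in brain, and its hairpins lie in introns of R3hdm1 and Arpp21. miR-218 is known from motor neurons, and its hairpins lie in introns of the axon guidance genes Slit2 and Slit3. miR-219 promotes the maturation of myelin-forming oligodendrocytes. In footpad skin, nerve fibres carry their cell bodies outside the dissected tissue, whereas their Schwann cells lie within it.

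The mature sequences set apart what each probe reads and which targets a miRNA can share with others. RefSeq (GRCm38.p6) held 4 of the 5, and they are shown 5′ to 3′ with the seed (bases 2 to 8) in capitals.
miR-9-5p: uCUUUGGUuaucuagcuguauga
miR-128-3p: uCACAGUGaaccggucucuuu
miR-218-5p: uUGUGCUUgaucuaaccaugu
miR-219a-5p: uGAUUGUCcaaacgcaauucu
No seed was shared among these 4. The only other mature miRNA of the table with one of these seeds was miR-7002-3p, which has that of miR-218-5p and was not among the miRNAs tested.

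The seed of miR-128-3p overlaps that of miR-27a-3p and miR-27b-3p, a pair expressed in many tissues, shifted by a base. Bases 1 to 8 of miR-128-3p equal bases 2 to 9 of both, a run of 8 shown in capitals.
miR-128-3p: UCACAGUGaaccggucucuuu
miR-27a-3p: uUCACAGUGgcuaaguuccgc
miR-27b-3p: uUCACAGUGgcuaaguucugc

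For the 4 members with a sequence, all probes but 1 pair with the 3′ part of their miRNA and leave some 5′ bases unread. The probes of miR-124-3p were not placed, as no sequence was held for it. The longer probe of miR-128-3p covers bases 2 to 21, and its other probe covers bases 3 to 21. The probes of miR-218-5p cover the same stretches of their target. Those of miR-9-5p cover bases 5 to 23 and 6 to 23, and those of miR-219a-5p cover bases 1 to 21 and 2 to 21. A pair of miRNAs from the opposite strand, miR-219b-3p and miR-219c-3p, are complementary to miR-219a-5p over 21 and 20 of its 21 bases (capitals), and so carry nearly the letters of its probe.
miR-219a-5p probe (DNA): agaattgcgtttggacaatca
miR-219b-3p: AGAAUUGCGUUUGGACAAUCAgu
miR-219c-3p: cgAGAAUUGCGUUUGGACAAUC

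The probe positions are given on mouse build mm9, per the file headers. The longer probe of miR-128-3p lies at chr1:130098982-130099001 and chr9:112021188-112021207. That of miR-218-5p lies at chr5:48615206-48615225 and chr11:35430343-35430362, and that of miR-9-5p at chr3:88019539-88019557, chr7:86650169-86650187 and chr13:83878430-83878448. A probe that matches several hairpins cannot tell their products apart. The headers list 4 positions for miR-219a-5p, which has 2 hairpins, so none is given here.

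The arrays differed in overall brightness, which bears on every value below. Over the 474 probes that every array detected, the 75th percentile was 284 to 398 signal units in WT and 288 on both cKO arrays at E16.5. It was 503 to 521 in WT and 375 to 408 in cKO at E17.5. The second E16.5 array of each genotype detected 279 and 281 miRNAs, against 352 to 384 on the other arrays. Groups fill separate columns of a single slide, so the position on the slide and the group cannot be told apart.

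miR-9-5p and miR-124-3p were not detected in footpad skin of either genotype. None of their spots was well above background on any of the 8 arrays: 0 of 117 used spots for each of the probes of miR-9-5p, and 0 of 118 and 0 of 115 for those of miR-124-3p. The brighter probe of miR-9-5p, a regulator of neural progenitors, gave signals between 2.92 and 6.91. The probe of miR-124-3p with the higher mean gave signals between −1.76 and 1.90. The negative-control spots of the same arrays averaged between 2.56 and 4.79, and 95% of them lay under 8.13 to 12.2 units. Every signal of the 4 probes of these miRNAs lay within the spread of the negative controls, at percentiles of 0.308 to 79.5. At this sensitivity neither miRNA could be compared between groups. Fewer cells of a type and less RNA per cell cannot be told apart in such bulk samples.

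**Figure D1:**
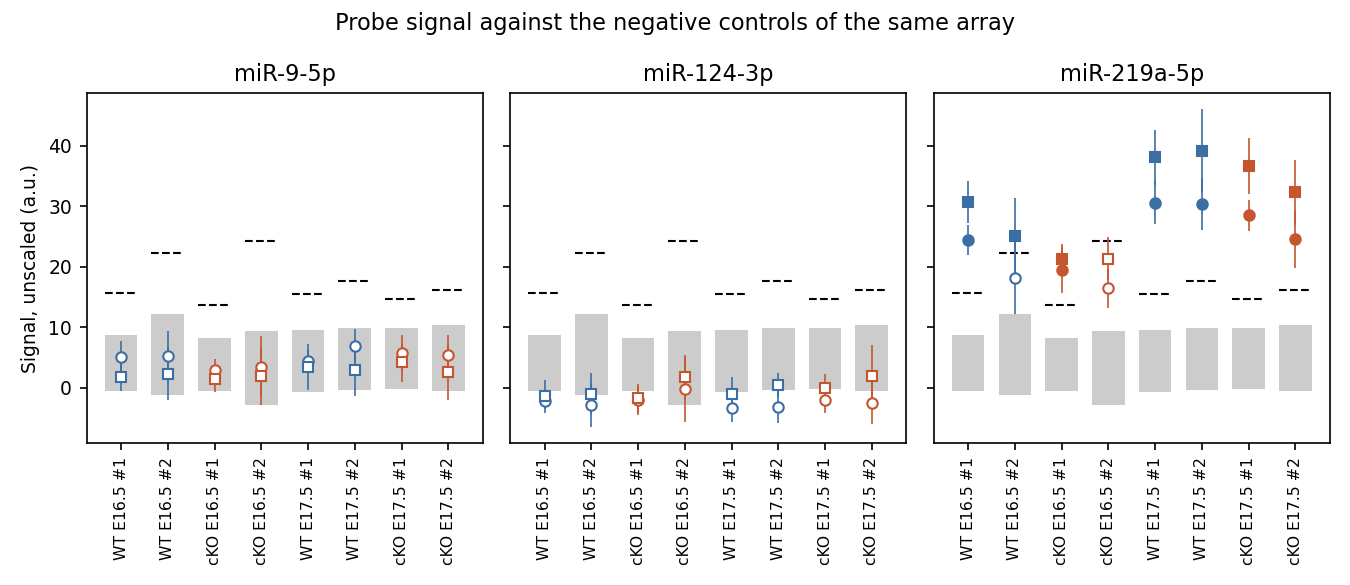
Signal (arbitrary linear units, before scaling) of both probes of miR-9-5p, miR-124-3p and miR-219a-5p on each of the 8 arrays (#1 and #2 are replicates; WT blue, cKO orange). Circles and squares are the 2 probes with the SD over their spots, filled where detected; grey boxes span the 5th to 95th percentile of the array's negative-control spots, and dashed lines mark its lowest detected probe. Only miR-219a-5p lies above the grey boxes, miR-124-3p lies within or under them, and the miR-219a-5p signal of 21.3 on the second cKO array at E16.5 is under the dashed line at 24.3.

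miR-128-3p, miR-218-5p and miR-219a-5p were present in both genotypes at both stages. Every used spot of miR-128-3p (118 and 114 per probe) and miR-218-5p (116 and 115) was well above background on all 8 arrays. miR-219a-5p was detected on 7 of 8 arrays. On its brighter probe 99 of 118 spots were well above background, and its other probe was detected on 6 arrays. The exception was the second cKO array at E16.5, where its signal of 21.3 lay under that array's lowest detected signal, 24.3. On the first cKO array at E16.5 the signal was also 21.3 and was detected, above a lowest detected signal of 13.7.

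Before any scaling, the signal of miR-128-3p at E16.5 was 106 and 73.1 units in WT and 87.5 and 83.1 in cKO. At E17.5 it was 111 and 108 in WT and 130 and 110 in cKO. The genotypes overlapped at both stages. miR-218-5p measured 201 and 123 in WT and 145 and 140 in cKO at E16.5. At E17.5 it measured 226 and 221 in WT and 215 and 217 in cKO. Its unscaled signals overlapped at E16.5, and at E17.5 both cKO arrays lay slightly under both WT arrays. miR-219a-5p measured 30.7 and 25.1 in WT and 21.3 and 21.3 in cKO at E16.5. At E17.5 it measured 38.1 and 39.2 in WT and 36.6 and 32.3 in cKO, so that cKO was the lower genotype at both stages. Without scaling, both cKO arrays lay under both WT arrays for 21.3% of the 385 tested miRNAs at the earlier stage and for 62.3% at the later. At E17.5, miR-218-5p and miR-219a-5p shared that order of raw signals, and miR-128-3p did not.

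For the tests, each array was divided by the 75th percentile named above and log2 was taken, with a common floor at −4.24. On this scale miR-128-3p at E16.5 was at −1.90 and −1.96 in WT and at −1.72 and −1.79 in cKO. At E17.5 it was at −2.18 and −2.28 in WT and at −1.64 and −1.77 in cKO. At each stage both cKO values exceeded both WT values. miR-218-5p was at −0.99 and −1.21 in WT and at −0.99 and −1.04 in cKO at E16.5, where the genotypes overlapped. At E17.5 it was at −1.15 and −1.24 in WT and at −0.93 and −0.79 in cKO, with no overlap. miR-219a-5p was at −3.70 and −3.50 in WT and at −3.76 on both cKO arrays at E16.5, so that cKO was lower. Non-overlap of this kind was seen at E16.5 for miR-128-3p (cKO higher) and miR-219a-5p (cKO lower), beside 56.1% of all tested miRNAs with cKO higher and 19.2% with cKO lower. At E17.5 the order of miR-219a-5p was turned, with −3.72 and −3.73 in WT and −3.48 and −3.54 in cKO. At E17.5 both cKO arrays thus exceeded both WT arrays for each of the 3 members, as they did for 55.3% of all tested miRNAs.

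**Figure D2:**
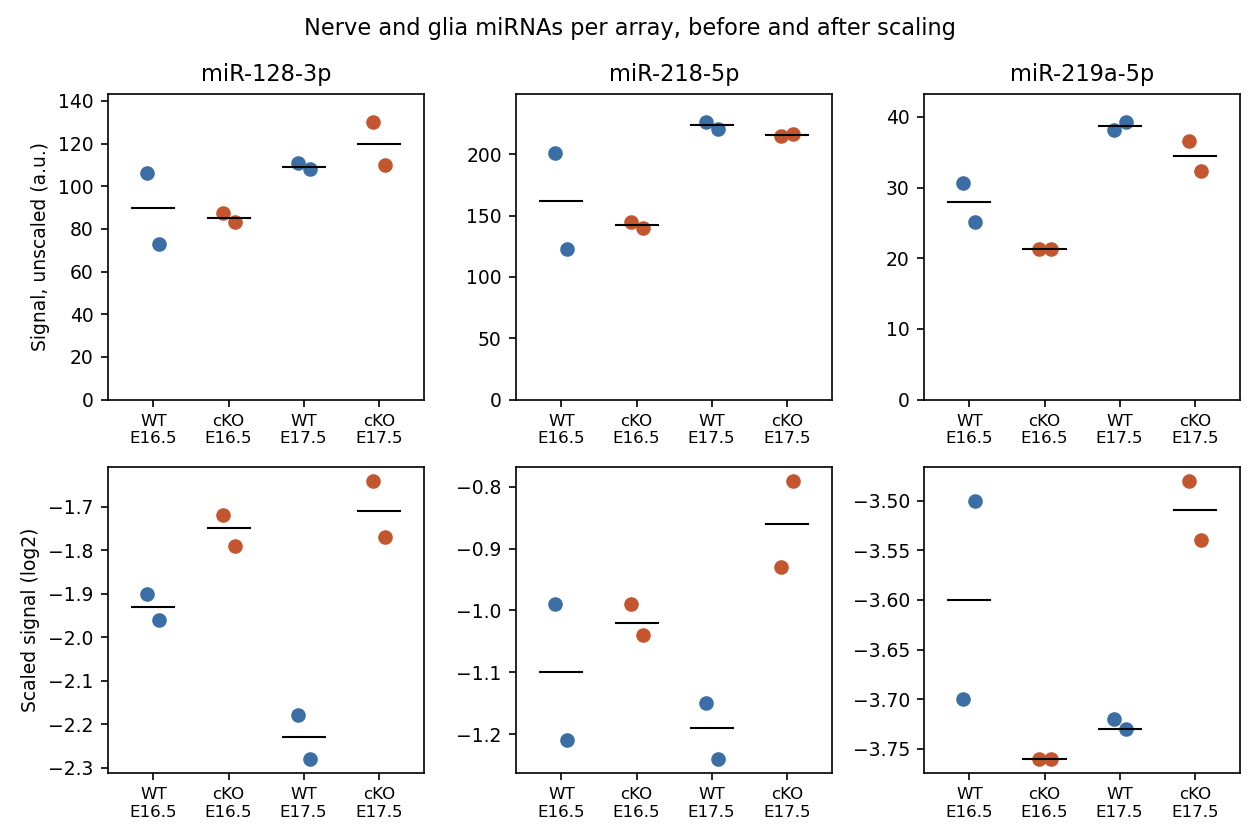
Signal of miR-128-3p, miR-218-5p and miR-219a-5p on each array, before scaling (top row, linear axis from 0, arbitrary units) and after division by each array's 75th percentile (bottom row, log2; the axes do not start at 0). Points are the 2 arrays of a group and lines their mean. For miR-218-5p at E17.5 the scaled cKO arrays (−0.93 and −0.79) lie above WT, while the unscaled ones (215 and 217) lie under WT (226 and 221).

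The comparison of cKO with WT over both stages addressed how footpad miRNAs differed with the loss of Dicer in some of the cells. miR-128-3p was higher in cKO by 0.35 ± 0.0465 in log2 units (SE over 4 arrays a genotype, limma adjusted p = 0.00227), or 1.27-fold. miR-218-5p was higher by 0.21 ± 0.0644 (limma adjusted p = 0.0383), or 1.16-fold. miR-219a-5p differed by 0.03 ± 0.0459, with a 95% interval from −0.09 to 0.15 (limma adjusted p = 0.587). With 2 of the 3 tested members called, the share stands beside 60.5% of all tested miRNAs called in either direction and 46.0% called higher. Over all tested miRNAs the median change was 0.17. Relative to it miR-128-3p stood 0.18 higher, miR-218-5p 0.04 higher and miR-219a-5p 0.13 lower (change minus median −0.13).

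Over both stages the probes of a miRNA gave the same calls. Both probes of miR-128-3p were called higher (0.37 and 0.35), as were both of miR-218-5p (0.27 and 0.21), and neither of miR-219a-5p (0.08 and 0.03) was called. That is 4 of 6 probes, beside 60.8% of the 719 tested probes called and 45.8% called higher.

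At E16.5, limma called none of the 3 members (0 of 3, with 1 at an unadjusted p under 0.05), although 50.9% of all tested miRNAs were called. miR-128-3p differed by 0.18 ± 0.0658 (limma adjusted p = 0.072), which was −0.01 from the median over all tested miRNAs (0.19). Its other probe was called higher (0.24, limma adjusted p = 0.0191), as was the mean of its probes (0.20, limma adjusted p = 0.0427), so its call at E16.5 depended on the probe read. miR-218-5p differed by 0.08 ± 0.091 (limma adjusted p = 0.47). miR-219a-5p was at −0.16 ± 0.065 (limma adjusted p = 0.096), or −0.34 relative to that median. Its 95% interval, −0.32 to 0.01, included 0. The second probe of miR-219a-5p gave −0.02 at this stage, where the first gave −0.16.

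At E17.5 all 3 members were called higher in cKO, beside 36.1% of all tested miRNAs called higher and 46.2% called in either direction. miR-128-3p was higher by 0.52 ± 0.0658 (limma adjusted p = 0.00249), or 1.44-fold, and only 14 of the other tested miRNAs had a larger increase. miR-218-5p was higher by 0.34 ± 0.091 (limma adjusted p = 0.0326). miR-219a-5p was higher by 0.22 ± 0.065 (limma adjusted p = 0.0432), but its second probe, at 0.18, was not called (limma adjusted p = 0.156). Against the median over all tested miRNAs at this stage (0.13), the members stood at 0.39, 0.21 and 0.09.

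The calls of miR-218-5p and miR-219a-5p rested on the full set of arrays. Leaving out any array in turn kept the E17.5 and both-stage calls of miR-128-3p, with changes of 0.46 to 0.59 and 0.32 to 0.38. The E17.5 calls of miR-218-5p and miR-219a-5p were lost on leaving out any of the 4 E17.5 arrays or of the 2 cKO arrays at E16.5. Their changes ranged over all 8 omissions from 0.27 to 0.40 and from 0.19 to 0.25. The both-stage call of miR-218-5p was kept only without WT replicate 1 at E16.5, and its change ranged from 0.15 to 0.27. With both second E16.5 arrays left out, the both-stage call of miR-218-5p was lost (0.16, limma adjusted p = 0.106) and the 3 calls at E17.5 stayed.

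The genotype difference was larger at E17.5 than at E16.5 by 0.34 ± 0.093 for miR-128-3p (limma adjusted p = 0.106). It was larger by 0.25 ± 0.129 for miR-218-5p (limma adjusted p = 0.261) and by 0.37 ± 0.0919 for miR-219a-5p (limma adjusted p = 0.103). Limma called none of these stage differences among the members (0 of 3, with 2 at an unadjusted p under 0.05), beside 1.56% of all tested miRNAs called. For miR-219a-5p the difference passed without WT replicate 1 at E16.5 (0.47, limma adjusted p = 0.0151) and with quantile scaling (0.47, limma adjusted p = 0.0319). Without that array its cKO value at E16.5 was also called lower (−0.25, limma adjusted p = 0.00927). Without WT replicate 2 at E16.5 its both-stage difference was called higher (0.08, limma adjusted p = 0.0313). Over all alternatives for the stage difference of miR-219a-5p, the adjusted p ranged from 0.0151 to 0.753.

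**Figure D3:**
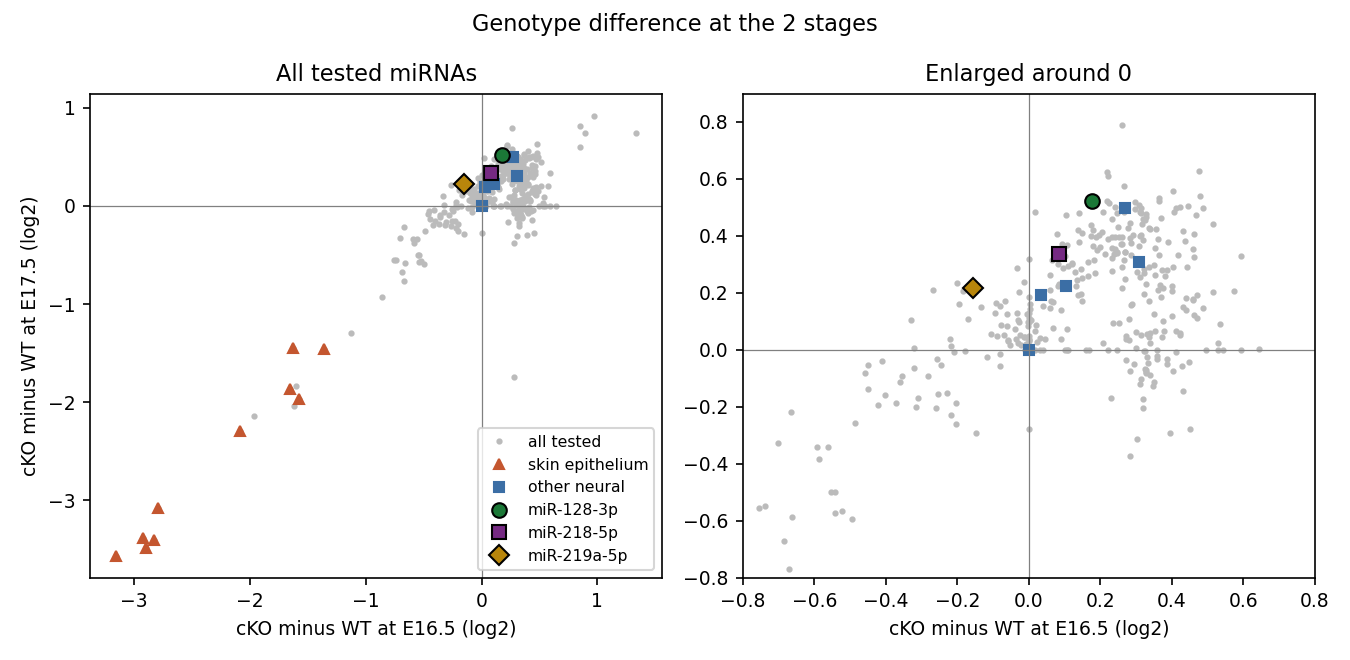
Difference between cKO and WT (log2) at E17.5 against that at E16.5 for the 385 tested miRNAs (grey), with the 3 tested members, the 5 other neural miRNAs tested (blue squares) and 10 skin epithelium miRNAs (orange triangles); the right panel enlarges the region around 0. miR-128-3p (0.18 and 0.52) and miR-218-5p (0.08 and 0.34) lie within the main cloud, and miR-219a-5p (−0.16 and 0.22) lies left of 0.

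The size of these differences, and for many of them the sign, depended on how the arrays were made comparable. Over the 6 scalings run, the median change of all tested miRNAs at E17.5 ranged from −0.28 to 0.13. miR-128-3p at E17.5 ranged from 0.01 to 0.52 and was called higher under 3 of the 6. miR-218-5p ranged from −0.17 to 0.34, called higher under 2. miR-219a-5p ranged from −0.29 to 0.22, called higher under 1 and lower under 1. At E16.5 miR-219a-5p was under 0 with each scaling, from −0.44 to −0.16, and was called lower under 2. There miR-128-3p ranged from −0.10 to 0.18 and miR-218-5p from −0.20 to 0.09, and neither was called. Over both stages miR-128-3p ranged from −0.05 to 0.35 and was called higher under 3 of the 6. miR-218-5p ranged there from −0.18 to 0.21, called higher under 2 and lower under 1. For miR-219a-5p the both-stage range was −0.36 to 0.03, called lower under 2. Scaled on the array's 5 positive-control probes, miR-218-5p and miR-219a-5p were called lower in cKO over both stages (−0.18 and −0.36), and miR-128-3p was at −0.05.

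The position of each member against the median of all tested miRNAs is given for description. Most of the scalings shift every miRNA of an array alike, so subtracting the median removes most of their effect by construction. At E17.5 miR-128-3p stood 0.30 to 0.41 over the median under all 6 scalings, and miR-218-5p stood 0.11 to 0.22 over it. miR-219a-5p stood between −0.01 and 0.09 from it. At E16.5 miR-128-3p stood between −0.08 and 0 from the median, and miR-218-5p between −0.18 and −0.02. miR-219a-5p stood between −0.47 and −0.34 from it.

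**Figure D4:**
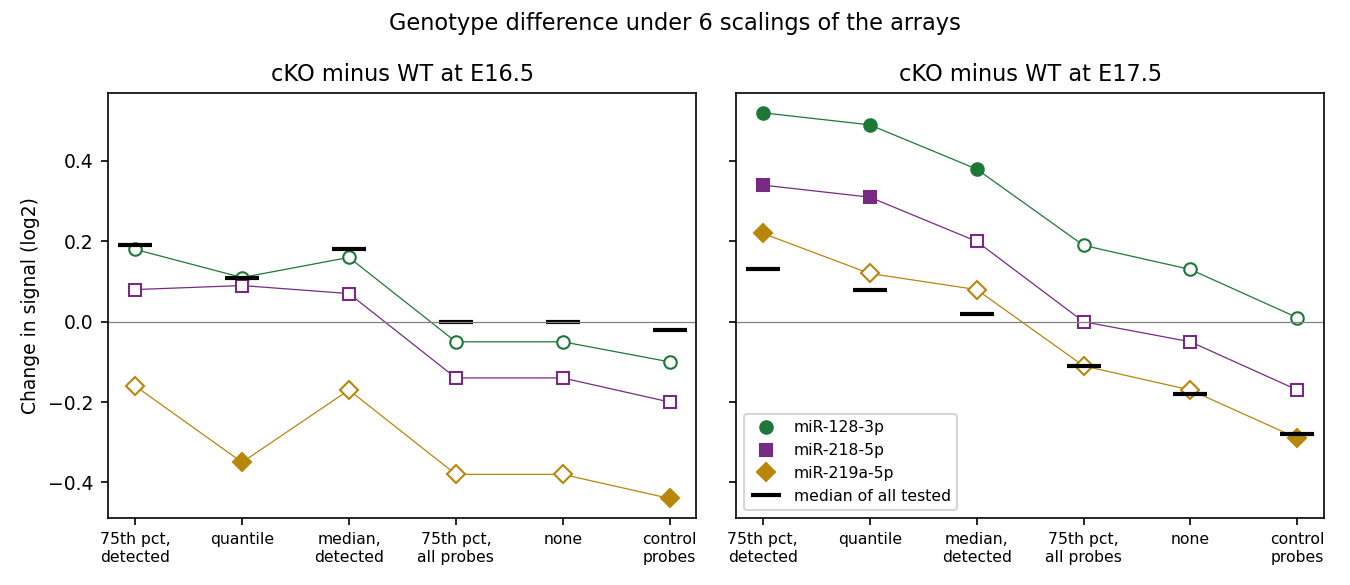
Difference between cKO and WT (log2) of miR-128-3p, miR-218-5p and miR-219a-5p at E16.5 (left) and E17.5 (right) under 6 scalings of the arrays. Filled markers passed limma's test after adjustment, open ones did not, and black bars are the median of all tested miRNAs. miR-128-3p at E17.5 falls from 0.52 to 0.01 across the scalings and stays 0.30 to 0.41 above the black bars.

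Between the stages, miR-128-3p was lower at E17.5 than at E16.5 in WT by 0.30 on the scaled log2 axis (change −0.30 ± 0.0658, limma adjusted p = 0.0453). This was 1 of 3 members called, beside 14.8% of all tested miRNAs called and 10.6% called lower, and the call was lost whichever array was left out (changes of −0.35 to −0.25). miR-218-5p and miR-219a-5p differed by −0.09 and −0.13 in WT and were not called. In cKO, miR-219a-5p was higher at E17.5 by 0.25 ± 0.065 (limma adjusted p = 0.0385), again 1 of 3 members, beside 35.6% of all tested miRNAs called and 15.3% called higher. That call was kept when either WT array of E16.5 was left out and lost on leaving out any other array, with changes of 0.22 to 0.28 over the 8 omissions. The other probe of miR-219a-5p was not called in cKO (0.13, limma adjusted p = 0.291). On the second cKO array at E16.5 miR-219a-5p was not detected. miR-128-3p and miR-218-5p differed by 0.05 and 0.16 in cKO and were not called. The unscaled signals of all 3 members were higher at E17.5 on both arrays of each genotype, as for 90.9% of tested miRNAs in WT and 74.5% in cKO. In WT the sign of the scaled change of miR-128-3p turned with the scaling, from −0.30 to 0.31.

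The scaled level of miR-128-3p was thus lowest in WT at E17.5 (−2.23 ± 0.065, SD, n = 2), followed by WT at E16.5 (−1.93 ± 0.04). It was −1.75 ± 0.0538 in cKO at E16.5 and −1.71 ± 0.092 in cKO at E17.5, a difference of 0.05 that was smaller than the spread between arrays. The step between WT and cKO at E16.5 did not pass the test. The level of miR-218-5p was −1.19 ± 0.0597 in WT at E17.5, −1.10 ± 0.16 in WT at E16.5 and −1.02 ± 0.0325 in cKO at E16.5. It was highest in cKO at E17.5, at −0.86 ± 0.0964. Neither stage comparison nor the genotypes at E16.5 passed the test for it. miR-219a-5p was at −3.76 ± 0.00128 in cKO at E16.5, −3.73 ± 0.00645 in WT at E17.5, −3.60 ± 0.136 in WT at E16.5 and −3.51 ± 0.0421 in cKO at E17.5. Its WT arrays at E16.5 spanned most of that range.

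The strands opposite the members, which are usually degraded after Dicer cuts the hairpin, gave no signal. None of the 12 opposite arms and miR-219 relatives on the array was detected on any array. They were miR-9-3p, miR-124-5p, miR-128-1-5p, miR-128-2-5p, miR-218-1-3p, miR-218-2-3p, miR-219a-1-3p and miR-219a-2-3p, with both arms of miR-219b and of miR-219c. The miRNAs complementary to miR-219a-5p shown above are among them.

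Of 28 other miRNAs known from neural tissue, 5 were tested and 23 were not detected on any array, among them miR-7a-5p, miR-129-5p, miR-137-3p, miR-138-5p and miR-153-3p. The median change of the 5 over both stages was 0.16, beside 0.17 for all tested miRNAs, and 2 of 5 were called higher, beside 46.0% of all tested miRNAs. Among the 5 is miR-132-3p, which stood at the floor in every group. Its change was therefore 0 and it could not be called. miR-212-3p, whose hairpin neighbours that of miR-132, was higher by 0.31 (limma adjusted p = 8.85e-04), with signals of 317 and 224 in WT and 277 and 288 in cKO at E16.5. At E17.5 its signals were 414 and 430 in WT and 400 and 397 in cKO. miR-204-5p, known from melanocytes and retinal pigment epithelium as well as from neural tissue, was higher by 0.38 (limma adjusted p = 0.016). Under the 6 scalings these changes ranged from −0.09 to 0.31 and from −0.01 to 0.38. miR-149-5p was tested and not called (limma adjusted p = 0.114).

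miR-338-3p, the partner of miR-219 in oligodendrocyte maturation and also expressed by Schwann cells, was detected on 6 of 8 arrays. Its signal was 32.1 and 23.2 in WT and 27.2 and 23.1 in cKO at E16.5, and 45.7 and 51.3 in WT and 44.7 and 41.8 in cKO at E17.5. Its unscaled genotypes overlapped at the earlier stage. At the later, both unscaled cKO signals lay under those of WT, as for 62.3% of all tested miRNAs. On the scaled axis miR-338-3p was higher in cKO by 0.16 over both stages and was not called (limma adjusted p = 0.0652). Within cKO it was higher at E17.5 than at E16.5 by 0.34 (limma adjusted p = 0.0347), beside 15.3% of all tested miRNAs. In WT it was higher at E17.5 by 0.22 and was not called (limma adjusted p = 0.133). The stage difference of its genotype effect, 0.12, was not called either (limma adjusted p = 0.52). At E16.5 it was detected on 1 array of each genotype. miR-132-3p, an activity-regulated neuronal miRNA, was detected on 4 of 8 arrays, with signals of 12.1 to 20.2, and stood at the floor in every group.

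The miR-27 pair, whose seed overlaps that of miR-128-3p, was called lower in cKO over both stages, beside 14.5% of all tested miRNAs. miR-27a-3p was lower in cKO over both stages (−0.52 ± 0.0396, limma adjusted p = 3.42e-04), with signals of 796 and 583 in WT and 392 and 408 in cKO at E16.5. At E17.5 its signals were 1120 and 1280 in WT and 665 and 632 in cKO, so that the unscaled genotypes did not overlap at either stage. The same unscaled order was seen for 21.3% of all tested miRNAs at E16.5 and for 62.3% at E17.5. miR-27b-3p was also lower over both stages (−0.14 ± 0.0348, limma adjusted p = 0.0181), but at E17.5 it differed by −0.03 and was not called (limma adjusted p = 0.675). Under the 6 scalings miR-27a-3p over both stages ranged from −0.91 to −0.48, called lower under all 6, and miR-27b-3p from −0.54 to −0.14, called lower under 4. A test of miR-128-3p against the pair was not made.

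By the root mean square difference of centred log2 values over the 8 arrays, the miRNAs most like miR-128-3p among 260 candidates were miR-543-3p (0.0552), miR-541-5p (0.0625) and miR-409-3p (0.0657), where the median candidate was at 0.207. Their changes at E16.5 were 0.22, 0.14 and 0.17, and at E17.5 they were 0.62, 0.42 and 0.40. Those most like miR-218-5p were miR-15a-5p (0.0537), miR-16-5p (0.0581) and miR-503-5p (0.0625), where the median was 0.179. miR-128-3p and miR-218-5p differed from each other by 0.134. All of these share the arrays and the scaling.

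miRNAs that mark other footpad cells moved with genotype on the same arrays. All 10 skin epithelium miRNAs were called lower in cKO over both stages, beside 14.5% of all tested miRNAs, with a median change of −2.56. Of the 10, miR-183-5p was detected on 4 of 8 arrays and changed by 0 between stages in cKO. A miRNA that passes the filter through WT alone and stands at the floor in cKO can only come out lower. The summed scaled level of the 10 was 27.2 to 27.7 in WT and 4.08 to 4.31 in cKO at E16.5. At E17.5 it was 29.0 to 32.1 in WT and 2.84 to 3.75 in cKO. Of 8 dermal mesenchyme miRNAs 7 were called higher over both stages, with a median change of 0.28 at the earlier and 0.43 at the later stage. At E16.5, 7 of them were called higher and miR-143-3p lower (−0.18, limma adjusted p = 0.0462). Of all tested miRNAs, 35.8% were called higher and 15.1% lower at that stage. At E17.5 all 8 were called higher, beside 36.1% of all tested miRNAs. The summed level of the 8 was 50.7 to 55.6 in WT and 63.9 to 65.6 in cKO at E16.5, and 48.7 to 50.5 and 68.2 to 69.6 at E17.5. All 5 skeletal muscle miRNAs (median 0.32) and both endothelial ones (median 0.44) were called higher over both stages, and 3 of 6 blood miRNAs tested, beside 46.0% of all tested miRNAs called higher. Under the 6 scalings these medians at E17.5 turned sign, ranging from −0.17 to 0.34 for muscle, from −0.01 to 0.50 for endothelium and from −0.27 to 0.19 for blood. Their summed levels in WT and cKO over both stages ranged from 8.50 to 9.55 and from 9.98 to 12.1 for muscle, and from 1.56 to 1.91 and from 2.01 to 2.54 for endothelium. For blood they ranged from 3.14 to 5.04 and from 4.63 to 5.07.

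The summed level of the 3 tested members was 0.777 to 0.849 in WT and 0.850 to 0.881 in cKO at E16.5. At E17.5 it was 0.706 to 0.746 in WT and 0.936 to 0.957 in cKO. Before scaling, the sums of the genotypes overlapped at both stages. They were 221 to 338 in WT and 245 to 253 in cKO at E16.5. The unscaled sums at E17.5 were 368 to 375 in WT and 359 to 382 in cKO. The median change of the 3 members at E17.5, 0.34, was that of miR-218-5p. The median at this stage was 0.13 for all tested miRNAs, 0.43 for dermal mesenchyme, 0.34 for skeletal muscle and 0.50 for endothelium. It was 0.17 for blood and −2.68 for skin epithelium. Under the 6 scalings the median of the mesenchyme list at E17.5 ranged from −0.08 to 0.43, and that of the epithelium list from −3.19 to −2.68. The part of these cell types, and of the lost epithelial signal through the scaling, in the members' differences was not tested.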

How the data were processed

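The authors hybridised 8 single-colour arrays and extracted them with Agilent Feature Extraction 11.5.1.1, per the file headers. The deposited scanner files hold background-subtracted fluorescence intensity per spot in linear arbitrary units, not scaled between arrays. Outlier-marked spots (2.84% to 6.02% per array) were left out and the spots of a probe averaged. Detection of a probe required over 50% of its spots to be marked well above background. Each array was divided by its 75th percentile over the 474 probes detected on all arrays, floored (median 5th percentile of detected probes) and taken to log2, and each miRNA was read from its brightest probe. Tests were run on the 385 miRNAs that both arrays of some group detected. limma 3.58.1 in R 4.3.3 fitted 4 group means (eBayes with trend, 4 residual degrees of freedom), with Benjamini-Hochberg adjustment over all tested miRNAs in each of 6 comparisons and calls at 0.05. The fit was tested on simulated data.

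Every member was named, with its opposite arms, the detected members of a list of other neural miRNAs, the miR-27 pair, other tested miRNAs with a member's seed and, for members detected on all arrays, the 3 most similar miRNAs. The members and lists were chosen with earlier results of these data known. Alternatives covered scaling, background, floor, filter, probe choice, outlier spots, the design, the deposited value table and each array left out. That table equalled the scanner's intensity within 0.02 in 100% of spots above 0. Sequences are from RefSeq (GRCm38.p6), and genes spanning a hairpin were taken from the same build. Figures were drawn with matplotlib.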

Additional observations from a re-analysis of the deposited data

How the results depend on the processing

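Of the alternatives to the scaling, control probes turned the most results. With them 2 members were called over both stages, both lower, and 3 probes, all lower. 1 member was called at E16.5 and 1 at E17.5, both miR-219a-5p and lower, and 0 in either stage comparison. The changes of miR-128-3p, miR-218-5p and miR-219a-5p over both stages were then −0.05, −0.18 and −0.36. At E16.5 miR-128-3p and miR-218-5p were at −0.10 and −0.20, at E17.5 miR-218-5p and miR-219a-5p at −0.17 and −0.29, and between stages in WT they were at 0.15 and 0.11. With all probes in the percentile, no member or probe was called over both stages (0), and 0 at E17.5 and in either stage comparison. miR-218-5p and miR-219a-5p were then at −0.07 and −0.25 over both stages, miR-128-3p and miR-218-5p at −0.05 and −0.14 at E16.5, and miR-219a-5p at −0.11 at E17.5. Between stages in WT the members were at 0.08, 0.28 and 0.25. With no scaling the counts over both stages (members and probes) and at E17.5 were 0, and in WT 1 member, miR-219a-5p, was called higher at E17.5 (0.48) with miR-128-3p at 0.31 and miR-218-5p at 0.51. miR-218-5p and miR-219a-5p were at −0.10 and −0.27 over both stages and at −0.05 and −0.17 at E17.5, and miR-128-3p and miR-218-5p at −0.05 and −0.14 at E16.5. Median scaling gave 1 call over both stages, 1 at E17.5 and 0 in WT, with miR-219a-5p at −0.04 over both stages and miR-218-5p at 0.02 in WT. Quantile scaling gave 3 calls over both stages, 2 higher and 1 lower, the lower being miR-219a-5p (−0.12, limma adjusted p = 0.046). It also gave 1 call at E16.5, 2 stage differences of the genotype effect and 2 calls in cKO. Of all tested miRNAs called over both stages, 76% were higher with the main scaling, 67.2% and 69.3% with median and quantile scaling, and 12%, 9.52% and 4.95% with all probes, none and control probes. The cause of these turns was not tested.

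With normexp background correction, 2 members were called between stages in WT and 0 in cKO, with miR-219a-5p at 0.09 at E16.5 and miR-128-3p and miR-219a-5p at −0.07 and −0.16 between stages in cKO. The scanner's total signal per miRNA, added after seeing the data, gave 1 call at E16.5, 1 at E17.5 and 0 in either stage comparison, with miR-128-3p at −0.07 in cKO. The mean of all probes gave 1 call at E16.5 and 0 in cKO. Keeping outlier spots gave 0 in either stage comparison, a fit of only the groups compared gave 0 in WT, and no floor gave 0 in cKO. Testing only miRNAs detected on all arrays also gave 0 there, because miR-219a-5p, the member called in cKO, is left out by that filter. Leaving out both second E16.5 arrays, also added later, gave 1 call over both stages, 2 probes and 0 in WT, with miR-218-5p at −0.01 at E16.5. The fit of only the groups compared gave no value for the both-stage comparison and the stage difference, which use all groups. Without the filter, miR-9-5p and miR-124-3p stayed untested because they were at the floor on every array.

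Leaving out each array in turn gave 1 to 2 calls over both stages, 0 to 1 and 1 to 3 at E16.5 and E17.5, 0 to 1 for the stage difference and 0 to 1 in each stage comparison. miR-219a-5p over both stages ranged from −0.02 to 0.08, miR-218-5p at E16.5 from −0.03 to 0.20 and in WT from −0.21 to 0.02, and miR-128-3p in cKO from −0.02 to 0.11. With the replicate block, which is also the slide row, 1 member was called over both stages, as was 1 at E16.5 and 1 at E17.5, each time miR-128-3p, and 0 in cKO. Same-numbered arrays deviated together by −0.14 to 0.28 over the 6 pairs of groups, so the numbers were not taken as pairs. Signal over background limits miR-219a-5p, miR-338-3p and miR-132-3p, whose dimmest arrays lie near the lowest detected signal.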
